A study of Mus musculus with 32 samples.

Results

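The Ifitm genes encode a family of small membrane proteins, and 4 of them are described here: Ifitm1, Ifitm2, Ifitm3 and Ifitm10. They were chosen by gene name out of the 46517 genes of the table, with earlier results on these libraries known. The tests below therefore give the size of a difference beside the spread between libraries and are not independent evidence. The study sequenced bulk RNA of Pmel CD8+ Thy1.1+ T cells from mice labelled with melanoma-associated vitiligo, a loss of pigment that follows melanoma. Pmel cells bear a transgenic T cell receptor specific for a melanocyte protein. The study set memory cells resident in tissues beside cells from lymphoid organs and from tumor.

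The 32 libraries form 8 groups of 4, all labelled with the C57BL/6 strain, an age of 16 weeks and the vitiligo disease state, the naive group included. Skin, lung, liver and lymph node memory cells were taken 45 days after tumor surgery. Tumor cells are labelled as infiltrating lymphocytes and spleen cells by the organ alone. A further group was taken on day 12 from the lymph node draining the tumor, and naive cells came from spleen. For the tumor, spleen and naive groups no source used here gives the time. The labels name no other allele, transgene or agent, and do not say whether each library came from its own animal or from pooled animals, so p-values reflect only how far these libraries differ from each other, which may be technical.

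IFITM proteins sit in the plasma membrane and in the membranes of endosomes and lysosomes, where they hinder the fusion of enveloped viruses with the cell. Ifitm1, Ifitm2 and Ifitm3 are textbook interferon-induced genes, and genes of this kind are known to carry the interferon-stimulated response element in their promoters. Ifitm1 is found mostly at the cell surface, whereas Ifitm3 is sorted to late endosomes and is the best known of the family for limiting influenza virus. Ifitm10 is a distant and little studied relative that is not regarded as a classical interferon-induced gene. In mice, memory CD8 T cells that stay in the lung after influenza virus infection are known to keep Ifitm3 expressed.

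All 4 genes lie on mouse chromosome 7. In the GRCm38 build, Ifitm2 spans chr7:140954837-140955987 on the minus strand, Ifitm1 chr7:140967221-140969825 on the plus strand and Ifitm3 chr7:141009586-141010770 on the minus strand, so the 3 fill 55.9 kb. Ifitm10 spans chr7:142325837-142373753 on the minus strand, 1.32 Mb from that cluster. The sequences around the RefSeq transcription starts (GRCm38.p6, 100 bases before to 30 bases after the start, written 5′ to 3′ on the strand of the gene) are shown because they hold, or lack, the letters by which interferon-activated factors are known to recognise DNA. Capitals mark matches to the core of the response element, which is GAAA, any 2 bases and GAAA, or to the gamma-activated site, TTCNNNGAA, searched on both strands. The windows are chr7:140967976-140968105 for Ifitm1, chr7:140955932-140956061 for Ifitm2, chr7:141010715-141010844 for Ifitm3 and chr7:142373717-142373846 for the outermost of 3 starts of Ifitm10.
Ifitm1: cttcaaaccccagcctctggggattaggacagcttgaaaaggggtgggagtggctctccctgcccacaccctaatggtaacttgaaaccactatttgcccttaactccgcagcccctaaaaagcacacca
Ifitm2: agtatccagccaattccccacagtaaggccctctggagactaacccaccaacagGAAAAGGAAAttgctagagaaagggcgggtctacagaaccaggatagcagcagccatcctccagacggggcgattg
Ifitm3: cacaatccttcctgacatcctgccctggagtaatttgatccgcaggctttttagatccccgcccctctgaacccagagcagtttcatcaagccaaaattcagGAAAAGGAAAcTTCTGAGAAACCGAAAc
Ifitm10: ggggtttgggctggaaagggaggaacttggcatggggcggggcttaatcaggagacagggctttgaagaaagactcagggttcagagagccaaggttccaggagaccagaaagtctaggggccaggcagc

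Ifitm2 had 1 match to the response element core, at bases -46 to -37 counted from the start. Ifitm3 had 2, at bases 3 to 12 and 20 to 29, and 1 match to the gamma-activated site at bases 14 to 22, which overlaps the second of them. No match was found in the Ifitm1 window or in the 3 Ifitm10 windows, which says only that these letters are absent there. The only Ifitm1 start used lies inside the gene span given above. The bases before the first base of that span, chr7:140967221, were thus not searched. Among 32851 RefSeq promoter windows of 250 bases before to 50 after the start, 3.44% held the core and 8.3% the gamma-activated site.

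Expression is given in TPM, a share of transcripts that is scaled by transcript length and sums to the same total in every library, so levels of different genes can be set side by side. Read depth is unknown, and between 10732 and 34211 genes lay above 0 per library. The labelled cell type was checked against 16 T cell genes, of which none was at 0 throughout any group. Their summed level was under 0.5 of the median in 6 libraries, namely skin replicate 4, tumor replicate 4, liver replicates 2, 3 and 4, and spleen replicate 4. Markers of other cells were present too. The 19 myeloid markers summed to between 1410 and 11367 TPM in lung, between 1593 and 16813 TPM in liver, between 43.5 and 7637 TPM in skin and between 333 and 556 TPM in tumor. They summed to between 80.6 and 698 TPM in lymph node memory cells, to between 688 and 8925 TPM in spleen, to between 41.4 and 61 TPM on day 12 and to between 4.31 and 6.83 TPM in naive cells. The 10 B cell markers summed to between 140 and 47415 TPM in lung, between 9.98 and 3003 TPM in liver, between 26.3 and 129 TPM in skin, between 60 and 142 TPM in tumor, between 451 and 5171 TPM in lymph node memory cells, between 1596 and 18456 TPM in spleen, between 208 and 280.2 TPM on day 12 and between 844 and 1003 TPM in naive cells. Hepatocyte markers reached 30700 TPM in liver and 9711 TPM in lung, and keratinocyte markers reached 3896 TPM in skin. Their part in the Ifitm levels was not tested beyond a myeloid covariate and correlations with marker sums, both given below. In such bulk libraries fewer cells of a type and less RNA per cell cannot be told apart.

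Naive cells stood apart from every other group in Ifitm1, Ifitm2 and Ifitm3, and not in Ifitm10. Ifitm1 measured 240.5, 254, 321 and 286 TPM on day 12, 1534, 227, 445 and 213 TPM in lymph node memory cells and 5957, 1124, 645 and 1639 TPM in spleen, against 0.23, 0.35, 0.12 and 0.08 TPM in naive cells. The lowest library outside the naive group was skin replicate 4, at 16.3 TPM. Ifitm1 was thus nearly silent in naive cells, while spleen replicate 1 ranked it as the 15th most abundant gene of that library. Its log2 change of TPM + 1 was 7.85 ± 0.93 on day 12, 8.49 ± 0.93 in lymph node memory cells and 10.42 ± 0.93 in spleen, each against naive cells (± SE, limma across 19738 genes, Benjamini-Hochberg adjusted p = 4.07e-07, 2.11e-07 and 6.24e-09). Among all genes tested between spleen and naive cells, it had the 2nd largest change.

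**Figure D1:**
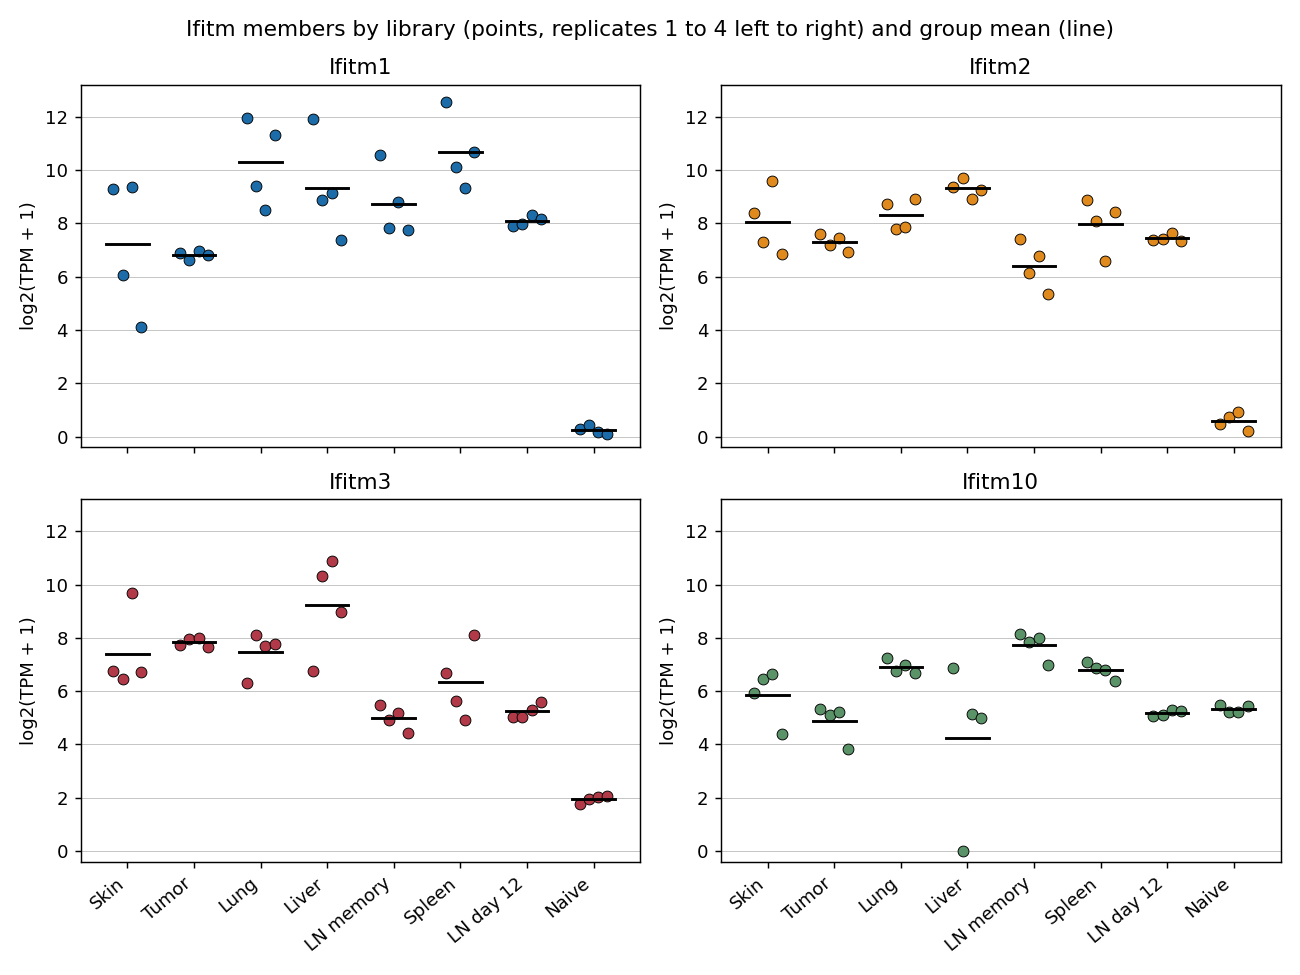
Level of each Ifitm member in each library as log2(TPM + 1), with groups along the horizontal axis, one point per library in the order of replicates 1 to 4, and a line at the group mean. Ifitm1, Ifitm2 and Ifitm3 lie lowest in all 4 naive libraries, while for Ifitm10 the naive libraries lie within the range of skin and 1 liver library is at 0.

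Ifitm2 was likewise near 0 in naive cells and high elsewhere. It measured 165, 168, 199 and 163 TPM on day 12, 170 (replicate 1), 68.9, 108 and 40.1 TPM in lymph node memory cells and 468, 270 (replicate 2), 94.6 and 343 TPM in spleen, against 0.40, 0.67, 0.89 and 0.15 TPM in naive cells. No naive library reached 1 TPM. The log2 change against naive cells was 6.86 ± 0.48 on day 12, 5.83 ± 0.48 in lymph node memory cells and 7.40 ± 0.48 in spleen (limma, adjusted p = 1.68e-11, 6.6e-10 and 7.53e-12).

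Ifitm3 was the only one of the 3 clustered genes detected above 1 TPM in naive cells. It measured 31.8, 31.5, 38.7 and 47.4 TPM on day 12, 43.4, 29.1, 34.8 and 20.7 TPM in lymph node memory cells and 103, 48.8, 29.1 and 272 TPM in spleen, against 2.38, 2.92, 3.09 and 3.22 TPM in naive cells. All 12 of these libraries lay above the 4 naive ones. The rise was smaller than for Ifitm1 and Ifitm2, with log2 changes of 3.28 ± 0.69 on day 12, 3.04 ± 0.69 in lymph node memory cells and 4.38 ± 0.69 in spleen against naive cells (limma, adjusted p = 0.00113, 0.00429 and 7.87e-05). Myeloid marker RNA also differed between these groups, as given above. With the summed myeloid level as a covariate, an alternative added after the values were seen, the Ifitm3 change was 2.04 on day 12 (limma, adjusted p = 0.0248), 0.79 in lymph node memory cells (0.788) and 1.03 in spleen (0.707), so that the last 2 calls were lost.

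Ifitm10 had a different pattern. It measured 32.4, 33.5, 38.4 and 37.6 TPM on day 12 and 43.6, 35.8, 36.02 and 42.4 TPM in naive cells, ranges that overlapped. The day 12 change against naive cells was -0.15 ± 0.76 (limma, adjusted p = 0.979). Lymph node memory cells held 284, 228, 252 and 127 TPM and spleen 138, 115, 109 and 82.5 TPM, all above the naive libraries. Against naive cells these differences were 2.41 ± 0.76 in lymph node memory cells and 1.45 ± 0.76 in spleen, and neither passed the threshold (limma, adjusted p = 0.0549 and 0.31). Both passed when only the 2 groups compared entered the fit (adjusted p = 0.000298 and 0.00366), with array weights, with weights per group and without the 6 libraries of low T cell content. The lymph node memory difference also passed with a filter of 5 TPM, with quantile normalization, with T cell content as a covariate and with the replicate number as a block (2.41, adjusted p = 0.0434). Neither difference passed without a filter (limma, adjusted p = 0.11 in lymph node memory cells and 0.437 in spleen). With a pseudocount of 0.1 neither passed (adjusted p = 0.309 and 0.573). The 4 members thus gave 3 calls, all higher, on day 12, in lymph node memory cells and in spleen, where 11.1%, 6.52% and 6.08% of all genes tested were called.

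Within the lymph node, memory cells set against day 12 cells gave 1 call among the 4 members, where 7.41% of all genes were called. Ifitm10 was higher in all 4 memory libraries, with a log2 change of 2.56 ± 0.76 (limma, adjusted p = 0.0362). Summed B cell markers were also higher in every lymph node memory library, at 451 to 5171 TPM, than in any day 12 library, at 208 to 280.2 TPM, and their part in the difference was not tested. This call sat close to the threshold: without single libraries of either group its adjusted p ran from 0.0388 to 0.0992, the highest without lymph node memory replicate 1, and 7 of these 8 fits, all but the one without lymph node memory replicate 4, did not call it. Ifitm1, Ifitm2 and Ifitm3 had changes of 0.64 ± 0.93, -1.03 ± 0.48 and -0.24 ± 0.69 (limma, adjusted p = 0.799, 0.218 and 0.917), and their ranges in the 2 groups overlapped. Day 12 libraries were close to each other, with a highest Ifitm1 level 1.33 times the lowest, whereas lymph node memory libraries differed 7.2 times.

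Lymph node memory cells set against spleen gave no member call, where 0.481% of all genes were called and 1916 genes, Ifitm1 and Ifitm2 among them, had an unadjusted p under 0.05. The differences were -1.93 ± 0.93 for Ifitm1, -1.57 ± 0.48 for Ifitm2, -1.34 ± 0.69 for Ifitm3 and 0.96 ± 0.76 for Ifitm10 (limma, adjusted p = 0.51, 0.167, 0.539 and 0.702). Without the 6 libraries of low T cell content, Ifitm10 was higher in lymph node memory cells by 0.83 (limma, adjusted p = 0.0218), and without spleen replicate 3 Ifitm2 was lower, with a change of -2.04 (adjusted p = 0.0462).

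Skin cells held less Ifitm1 than spleen cells, with a highest skin level 39.9 times the lowest. Ifitm1 measured 634, 66.8, 651 and 16.3 TPM in skin, against 5957, 1124, 645 and 1639 TPM in spleen. Replicates 2 and 4 of skin were low, and skin replicate 3 lay just above the lowest spleen library, so the groups overlapped narrowly. The log2 change was -3.46 ± 0.93 (limma, adjusted p = 0.0181), the 1 call among the 4 members where 7.68% of all genes were called. It was not called without skin replicate 4 (-2.42, adjusted p = 0.112), skin replicate 2 (-3.08, adjusted p = 0.0675) or spleen replicate 1 (-2.84, adjusted p = 0.0841), nor without the 6 libraries of low T cell content (-2.42, adjusted p = 0.0652).

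Ifitm2 and Ifitm3 did not pass between skin and spleen. Ifitm2 measured 339, 157, 780.5 and 114 TPM in skin, and its change against spleen was 0.05 ± 0.48 (limma, adjusted p = 0.981). Ifitm3 measured 108, 85.9, 818 and 104 TPM in skin, and its change against spleen was 1.07 ± 0.69 (adjusted p = 0.455). Skin replicate 3, the highest for both, also held 7637 TPM of summed myeloid markers, against 43.5 to 379 TPM in the other skin libraries. Apart from the myeloid covariate, the part of these cells in the Ifitm levels was not tested. Ifitm3 was called higher in skin than in spleen without the 6 libraries of low T cell content (1.88, adjusted p = 0.0274) and with the myeloid covariate (2.10, adjusted p = 0.0235). Ifitm10 measured 60.7, 86.1, 98.3 and 20.2 TPM in skin, with a change of -0.93 ± 0.76 against spleen (adjusted p = 0.603). Keratinocyte markers summed to between 142 and 3896 TPM in skin and between 12.9 and 20.1 TPM in spleen, and B cell markers to between 26.3 and 129 TPM in skin and between 1596 and 18456 TPM in spleen.

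Skin cells set against lymph node memory cells gave 2 member calls, both higher in skin, where 7.48% of all genes were called. Ifitm3 lay above every lymph node memory library in all 4 skin libraries, at least 85.9 TPM in skin with 43.4 TPM as the highest lymph node memory level, and with a log2 change of 2.41 ± 0.69 (limma, adjusted p = 0.028). Ifitm2 was higher in skin by 1.62 ± 0.48 (adjusted p = 0.0347), with 2 skin libraries inside the lymph node memory range. Neither call held without skin replicate 3, at 1.65 for Ifitm3 (adjusted p = 0.129) and 1.1 for Ifitm2 (adjusted p = 0.152). Both were also lost without lymph node memory replicate 2 (adjusted p = 0.07 for Ifitm3 and 0.101 for Ifitm2) or replicate 4 (0.0735 and 0.134), Ifitm3 without replicate 3 (0.0506) and Ifitm2 without skin replicate 1 (0.0924). Ifitm10 differed by -1.89 ± 0.76 and Ifitm1 by -1.53 ± 0.93 (limma, adjusted p = 0.137 and 0.358). Ifitm10 was called lower in skin with array weights (-1.59, adjusted p = 0.000312), with weights per group (-1.89, adjusted p = 0.0142) and without the 6 libraries of low T cell content (-1.4, adjusted p = 0.000157).

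Tumor-infiltrating cells were the most uniform of the 4 tissue groups in Ifitm1, Ifitm2 and Ifitm3. Ifitm1 measured 117, 97.2, 123 and 113 TPM in tumor, all below the spleen libraries, and its change against spleen was -3.85 ± 0.93 (limma, adjusted p = 0.00957). This was the 1 call among the 4 members, where 6.25% of all genes were called, and it held without each single library in turn, with adjusted p up to 0.0471. Ifitm3 measured 212, 251, 253 and 201 TPM in tumor, and its change against spleen was 1.51 ± 0.69 (adjusted p = 0.232). It was called higher in tumor without the 6 libraries of low T cell content, which drops tumor replicate 4 and spleen replicate 4, at 2.15 (adjusted p = 0.0143), and with the myeloid covariate, at 2.27 (adjusted p = 0.0118). Ifitm2 measured 195, 146, 173 and 122 TPM in tumor, with a change of -0.69 ± 0.48 (adjusted p = 0.52). Ifitm10 measured 39.6, 33.2, 35.9 and 13.1 TPM in tumor, all below the spleen libraries, and the change of -1.92 ± 0.76 did not pass (adjusted p = 0.152), though it did in the fit of the 2 groups alone (adjusted p = 0.0163). Melanocyte and melanoma markers summed to between 362 and 849 TPM in tumor and to at least 6.66 TPM, with a median of 9.07 TPM, in spleen, and their part in these levels was not tested.

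**Figure D2:**
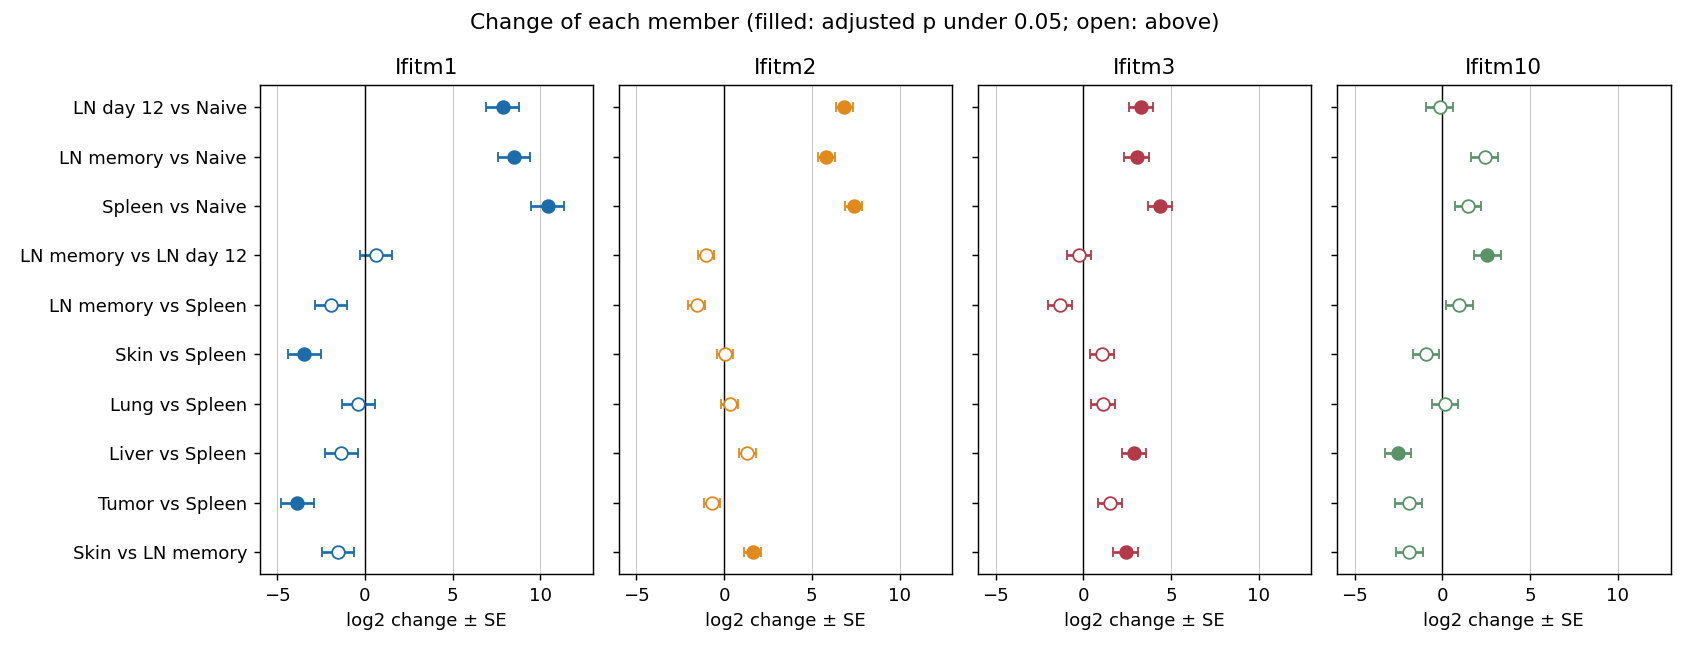
Log2 change of TPM + 1 with its SE for each member (panels) in each of the 10 comparisons (rows), the group named first minus the group named second. Filled points have an adjusted p under 0.05 in limma: they are Ifitm1, Ifitm2 and Ifitm3 in the 3 comparisons with naive cells, and 7 scattered calls between the other groups.

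Liver cells held the highest mean Ifitm2 and Ifitm3 of the study, in libraries that were mostly of low T cell content. Ifitm3 measured 106, 1276, 1896 and 500.2 TPM in liver, while the spleen libraries held 103, 48.8, 29.1 and 272 TPM, and only liver replicate 1 lay within the spleen range. The log2 change was 2.90 ± 0.69 (limma, adjusted p = 0.00749). Liver replicates 2, 3 and 4, the 3 high ones, held between 14992 and 16813 TPM of summed myeloid markers and between 3080.3 and 30700 TPM of hepatocyte markers, against 1593 and 807 TPM in liver replicate 1. Without the 6 libraries of low T cell content liver keeps replicate 1 alone, assumed to vary like the other groups, and the Ifitm3 change was 1.0 (adjusted p = 0.503).

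Ifitm10 measured 115, 0, 34.2 and 30.7 TPM in liver, with a change of -2.54 ± 0.76 against spleen (limma, adjusted p = 0.029). Liver replicate 2 lists the gene at 0 and has the fewest genes above 0 of all libraries, and without it the change was -1.13 (adjusted p = 0.119). The call was also lost without spleen replicates 1, 2 or 3, at adjusted p of 0.053, 0.0512 and 0.0549. Without the 6 libraries of low T cell content it was -0.06 (adjusted p = 0.966). These were the 2 member calls in a comparison that called 13.6% of all genes. Ifitm2 measured 657, 841, 478 and 616 TPM in liver, all above spleen, and its change of 1.32 ± 0.48 did not pass (adjusted p = 0.0615). It did without spleen replicate 1 (1.62, adjusted p = 0.0368) and with a filter of 5 TPM (1.32, adjusted p = 0.0487). It also passed with quantile normalization (1.47, adjusted p = 0.0309) and with T cell content as a covariate (1.6, adjusted p = 0.0468). With weights per group its adjusted p was 0.49. Ifitm1 measured 3925, 466, 559 and 167 TPM in liver, with a change of -1.34 ± 0.93 (adjusted p = 0.314) that turned to 1.27 when liver kept replicate 1 alone (adjusted p = 0.582).

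Lung cells gave no member call against spleen, where 0.111% of all genes were called and 1457 genes, no member among them, had an unadjusted p under 0.05. Ifitm1 measured 3989, 672, 365 and 2588 TPM in lung and Ifitm2 measured 424, 219, 230 (replicate 3) and 484 TPM. Ifitm3 measured 78.7, 276, 207 and 217 TPM in lung, and Ifitm10 measured 151, 108, 127 and 101 TPM. All 4 genes overlapped spleen in range. Lung replicate 3, the lowest for Ifitm1, held 47415 TPM of summed B cell markers and 9711 TPM of hepatocyte markers, beside 15805 TPM of T cell genes. Their changes against spleen were -0.37 ± 0.93, 0.33 ± 0.48, 1.14 ± 0.69 and 0.14 ± 0.76 for Ifitm1, Ifitm2, Ifitm3 and Ifitm10 (limma, adjusted p = 1, 1, 0.801 and 1).

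Ordered by mean log2 level, Ifitm1 ran from spleen over lung, liver, lymph node memory, day 12, skin and tumor to naive cells. Ifitm2 and Ifitm3 were both highest in liver and had lymph node memory cells next to last, before naive cells. Ifitm10 was highest in lymph node memory cells and lowest in liver. In each of these orders neighbouring groups overlapped in range, except the naive group, which lay below its neighbour for Ifitm1, Ifitm2 and Ifitm3.

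The make-up of the family differed between groups as well as its sum. The 4 genes summed to between 255 and 2349 TPM in skin, 449 and 586 TPM in tumor, 929 and 4644 TPM in lung, 1314 and 4804 TPM in liver. The sum lay between 401 and 2032 TPM in lymph node memory cells, 878 and 6666 TPM in spleen, 470 and 596 TPM on day 12, and 39.7 and 46.6 TPM in naive cells. In naive cells Ifitm10 made up 91.5% ± 1.83 of the sum (SD, n = 4 in each group). Ifitm1 led in 4 of 4 libraries of spleen (76.3% ± 8.83), lung (63.6% ± 21.4) and day 12 (52.7% ± 1.23). In tumor Ifitm3 led in 4 of 4 libraries, at 43.3% ± 4.17, while Ifitm1 made up 21.3% ± 2.79. Lymph node memory cells had the largest Ifitm10 share outside the naive group, at 29.2% ± 11.3. Skin and liver had no uniform leader: Ifitm1 led in 1 library of each, Ifitm2 in 2 of skin and 1 of liver, and Ifitm3 in 1 of skin and 2 of liver.

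**Figure D3:**
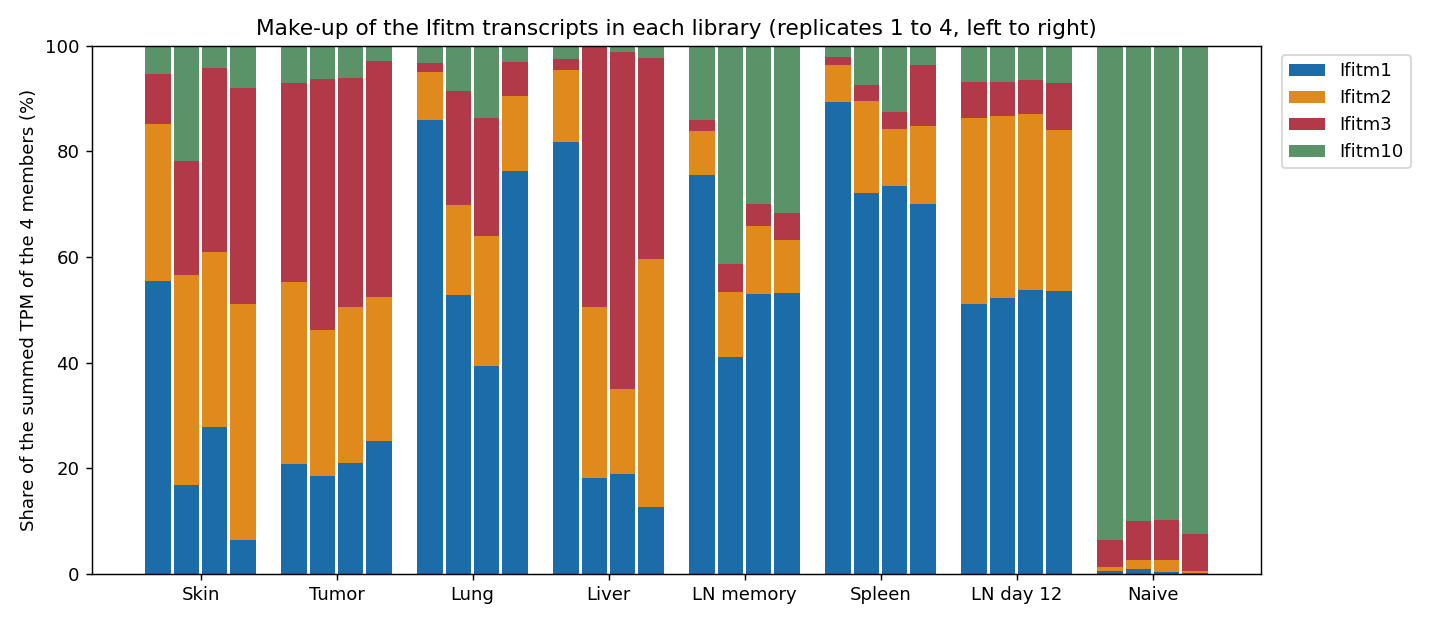
Share of each member in the summed TPM of the 4 genes, in percent, for each library in the order of replicates 1 to 4 within a group. Ifitm10 fills more than 89% of the bar in every naive library, Ifitm1 leads in every spleen, lung and day 12 library, and Ifitm3 leads in every tumor library.

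The ratio of Ifitm1 to Ifitm3 puts this in 1 value per library. It lay between 0.387 and 0.562 in tumor, between 1.76 and 50.7 in lung, between 7.78 and 35.3 in lymph node memory cells, between 6.03 and 58 in spleen, between 6.04 and 8.28 on day 12 and between 0.0248 and 0.12 in naive cells. Ifitm3 thus exceeded Ifitm1 in every tumor and naive library, and Ifitm1 exceeded Ifitm3 in every lung, lymph node memory, spleen and day 12 library. Skin spanned 0.157 to 5.85 and liver 0.295 to 36.9, on both sides of equal levels.

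The interferon pathway was read from 34 genes known to be induced by interferon, none of them an Ifitm gene, and from 19 genes of its receptors and signalling. Where Ifitm1, Ifitm2 and Ifitm3 rose on day 12 against naive cells, 16 of the 34 response genes fell and 0 rose, with a median log2 change of -1.51 beside -0.191 over all genes tested. Ifit3, of the tetratricopeptide repeat family of antiviral proteins, fell by 3.83 on the log2 scale, with means of 8.41 TPM on day 12 and 132 TPM in naive cells (limma, SE 0.50, adjusted p = 1.84e-06). Usp18, a brake on type I interferon receptor signalling, changed by -3.75 ± 0.56 and Oasl2, an oligoadenylate synthetase-like protein, by -3.57 ± 0.73 (adjusted p = 1.55e-05 and 0.000815). Other settings gave 12 to 30 lower response genes in this comparison, and 0 to 2 higher.

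Of the 19 signalling genes, 6 fell on day 12 and 1 rose against naive cells. Their median log2 change was -0.67 beside -0.191 over all genes tested, of which 11.1% were called in this comparison. The largest decreases were Socs3, a feedback inhibitor of cytokine receptors, at -4.70 ± 0.72, Ifngr2, a chain of the interferon gamma receptor, at -4.59 ± 0.80, and Socs1, another feedback inhibitor, at -2.23 ± 0.53 (limma, adjusted p = 2.19e-05, 0.000135 and 0.00413). Irf8, a transcription factor of the interferon regulatory family, rose by 2.38 ± 0.74 (adjusted p = 0.0321). Lymph node memory cells and spleen each had 1 lower and 0 higher response genes against naive cells, with medians of -0.19 and -0.56 beside 0.057 and -0.050 over all genes. In both the gene was Oas2, a sensor of double-stranded RNA, at -2.63 ± 0.47 in lymph node memory cells and -2.79 ± 0.47 in spleen (adjusted p = 0.000323 and 0.000216). Other settings gave 1 to 10 lower and 0 to 7 higher in lymph node memory cells, and 1 to 12 lower and 0 to 1 higher in spleen. Of the signalling genes, 1 rose and 2 fell in lymph node memory cells and 1 rose and 1 fell in spleen against naive cells. Their medians there were 0.17 and -0.48, where 6.52% and 6.08% of all genes tested were called. Irf8 was the signalling gene that rose, by 3.37 ± 0.74 in lymph node memory cells and 3.98 ± 0.74 in spleen (adjusted p = 0.00308 and 0.000642), and Socs3 fell in both. Summed B cell markers were 451 to 5171 TPM in lymph node memory cells, 1596 to 18456 TPM in spleen and 844 to 1003 TPM in naive cells. Myeloid markers were 80.6 to 698, 688 to 8925 and 4.31 to 6.83 TPM in the same order. The part of such cells in the Irf8 change was not tested.

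**Figure D4:**
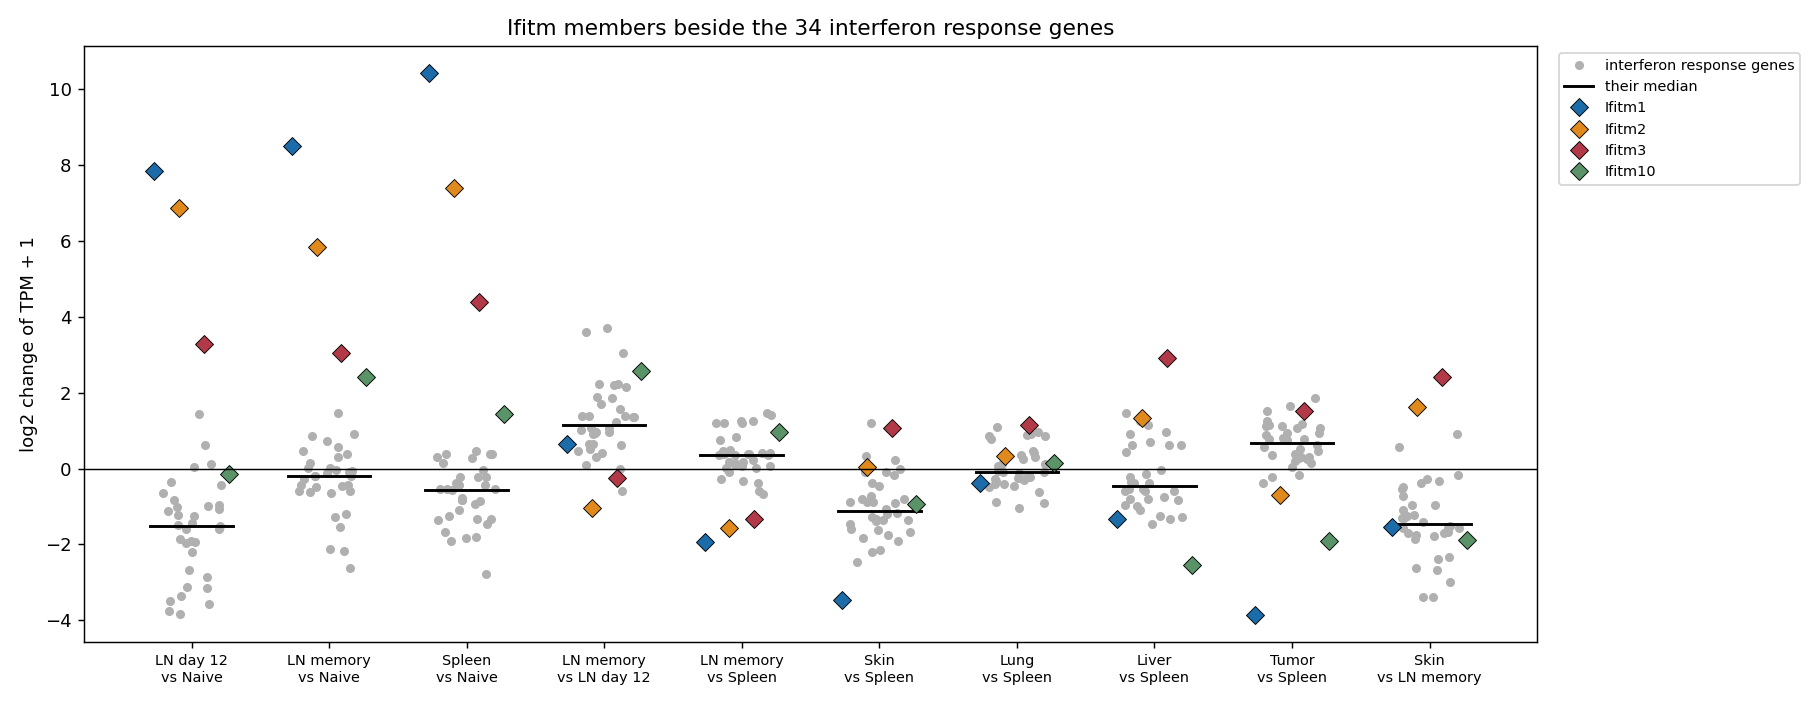
Log2 change of TPM + 1 in each of the 10 comparisons for the 34 interferon response genes (grey points, spread sideways at random), their median (line) and the 4 Ifitm members (coloured diamonds). In the 3 comparisons with naive cells Ifitm1, Ifitm2 and Ifitm3 lie above every response gene, whose medians are -1.51, -0.19 and -0.56.

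In lymph node memory cells 10 of the 34 interferon response genes were higher than in day 12 cells and 0 were lower, with a median of 1.14 beside 0.261 over all genes. The largest were Ifit3 at 3.70 ± 0.50, its neighbour Ifit3b at 3.60 ± 0.57 and Ifit1 at 3.05 ± 0.62 (limma, adjusted p = 1.87e-05, 0.00012 and 0.00161). Other settings gave 7 to 27 higher genes. Of the signalling genes 4 rose and 0 fell, among them Socs1 at 3.10 ± 0.53, Irf1 at 1.31 ± 0.41 and the receptor chain Ifnar2 at 1.12 ± 0.35 (adjusted p = 0.000258, 0.046 and 0.0444). Their median was 0.99, and 7.41% of all genes tested were called between these groups. Ifitm1, Ifitm2 and Ifitm3 were not called in this comparison, with the changes given above.

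In skin 12 of the 34 response genes were lower than in lymph node memory cells and 0 were higher, with a median of -1.47 beside -0.250 over all genes, while Ifitm2 and Ifitm3 were higher. Ifit3 changed by -3.39 ± 0.50, Ifit3b by -3.38 ± 0.57 and Ifit1 by -2.99 ± 0.62 in skin (limma, adjusted p = 4.89e-05, 0.00027 and 0.00231). Other settings gave 6 to 23 lower genes. Against spleen, skin had 0 higher and 7 lower response genes with a median of -1.12 beside -0.121, led by Ifi203, a DNA-binding protein of the interferon-inducible p200 family, at -2.46 ± 0.47 (adjusted p = 0.000735), and other settings gave 0 to 12. Tumor had 1 higher and 0 lower against spleen, the exonuclease Isg20 at 1.86 ± 0.44 (adjusted p = 0.00766), and other settings gave 0 to 11 higher. Liver had 0 higher and 2 lower, and lung and lymph node memory cells had no called response gene against spleen. Those 3 medians were -0.46, -0.09 and 0.37, beside -0.530, 0.043 and 0.166 over all genes. Of all genes tested, 6.25% were called in tumor, 13.6% in liver, 0.111% in lung and 0.481% in lymph node memory cells against spleen. In skin 1 signalling gene rose and 4 fell against lymph node memory cells, among them Irf3 at -1.45 ± 0.33 (adjusted p = 0.00593), and 1 rose and 1 fell against spleen. Medians of the signalling genes were -0.64 and -0.09, where 7.48% and 7.68% of all genes tested were called.

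Of 8 other membrane proteins known to restrict viruses, Ly6e was higher in lymph node memory cells than in naive cells, with a change of 1.16 ± 0.35 (limma, adjusted p = 0.0396), and lower in tumor than in spleen, with -1.51 ± 0.35 (adjusted p = 0.00666). Ch25h, which makes an antiviral oxysterol, was higher in skin than in lymph node memory cells by 0.84 ± 0.25 at means of 0.997 and 0.065 TPM (adjusted p = 0.0344). Tmem173, which encodes STING, was lower in liver than in spleen by a change of -2.47 ± 0.70 (adjusted p = 0.0218). Its means were 26.2 TPM in liver and 64.7 TPM in spleen, and the groups overlapped in range. Liver replicates 2, 3 and 4 were of low T cell content, and its part in the Tmem173 change was not tested. Each of these calls was the only one among the 8 in its comparison, and the other comparisons had none. Shares of all genes called were 6.52% for lymph node memory against naive cells and 6.25% for tumor against spleen. They were 7.48% for skin against lymph node memory and 13.6% for liver against spleen.

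Among 11 genes whose proteins bind or modify IFITM proteins, Cd81, a tetraspanin, was higher in spleen than in naive cells by 2.34 ± 0.71 (limma, adjusted p = 0.0451). Setd7, a lysine methyltransferase, was lower on day 12 than in naive cells by a change of -1.25 ± 0.30 (adjusted p = 0.00443). It was the only one of the 11 called there, where 11.1% of all genes tested were called. In spleen against naive cells 2 of the 11 were called, both higher, beside 6.08% of all genes tested.

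Levels of the members were also set beside the marker genes of other cells, across the 28 libraries that are not naive. Points of 1 group share tissue and dissociation, so these correlations are descriptions. Ifitm3 followed the summed myeloid level with a Spearman rho of 0.62 and Ifitm2 with 0.64, while Ifitm1 had 0.41 and Ifitm10 0.11. Ifitm10 had a rho of 0.57 with the summed B cell level, 0.45 with lung epithelium and -0.58 with melanocyte and melanoma markers. Ifitm1 had 0.49 with B cell, 0.54 with lung epithelium and -0.55 with stromal and endothelial markers. With CD4 and regulatory T cell markers, Ifitm1 had 0.23, Ifitm2 0.13, Ifitm3 -0.02 and Ifitm10 0.42. Ifitm2 and Ifitm3 followed each other with 0.68, whereas Ifitm1 and Ifitm3 had 0.07. The day 12 libraries had 41.4 to 61 TPM of summed myeloid markers, above the 4.31 to 6.83 TPM of naive libraries. Of these markers, Cd14 and S100a8 were at 0 in all 4 day 12 libraries. Cd68, on the same list, had a mean of 27.5 TPM on day 12 and 0.867 TPM in naive cells. These day 12 libraries held 240.5 TPM or more of Ifitm1, 163 TPM or more of Ifitm2 and 31.5 TPM or more of Ifitm3.

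**Figure D5:**
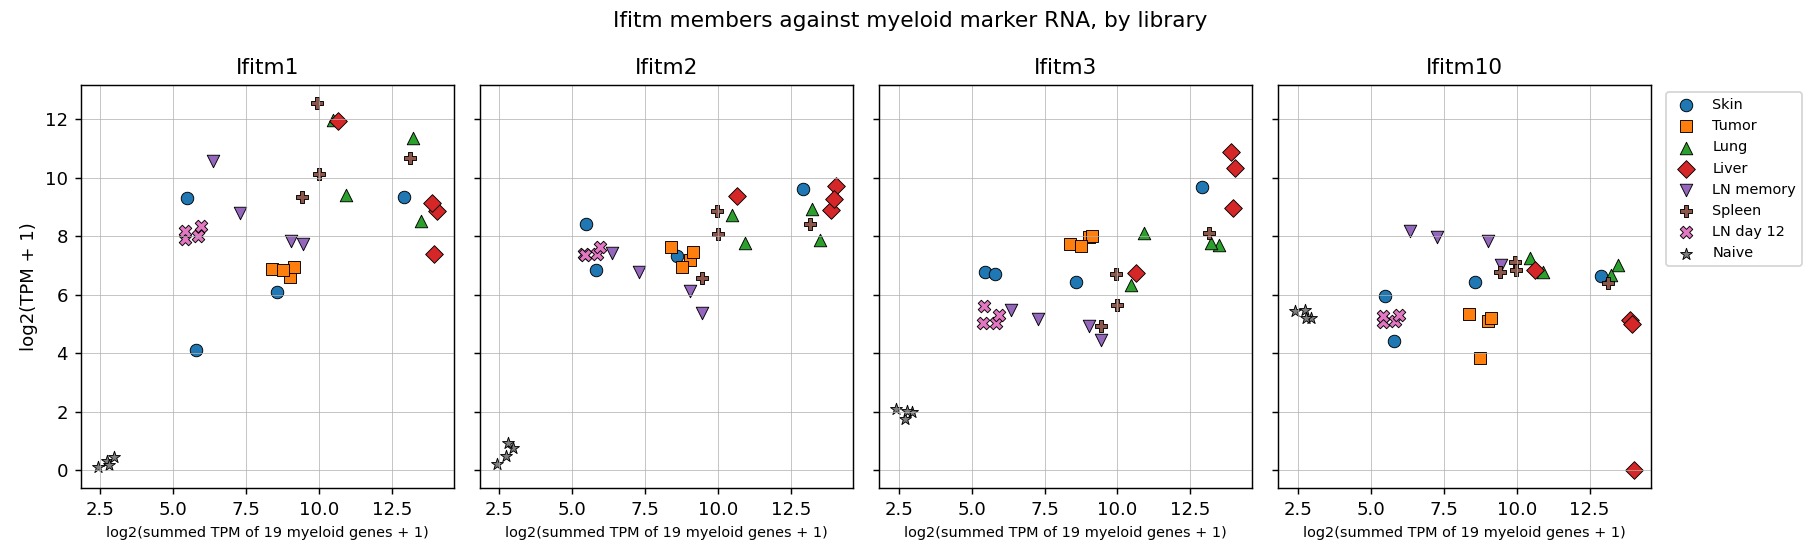
Level of each member as log2(TPM + 1) against the log2 of the summed TPM of 19 myeloid marker genes + 1, one point per library, with colours and shapes for the 8 groups. Ifitm3 reaches 1276 and 1896 TPM in 2 of the 3 liver libraries with the most myeloid RNA, Ifitm1 is at 240.5 TPM or more in day 12 libraries at 41.4 to 61 TPM of myeloid RNA, and naive libraries lie at the lower left for Ifitm1, Ifitm2 and Ifitm3.

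The genes most like each member were taken by Spearman rho over the 32 libraries among 7304 genes with a mean log2(TPM + 1) of at least 3. For Ifitm1 they were Gzma (0.868), which encodes the cytotoxic protease granzyme A, Fxyd4 (0.827), the chemokine gene Ccl5 (0.824), Cyba (0.808) and Mthfsl (0.804). Ccl5 was 2nd by Pearson correlation. For Ifitm2 they were the macrophage gene Cd68 (0.834), Fcer1g (0.792), Ifitm3 (0.783), Tmem37 (0.781) and the cathepsin gene Ctsb (0.776), and Cd68 and Fcer1g are on the myeloid marker list. For Ifitm3 they were Plin2 (0.880), a coat protein of lipid droplets, Ccl6 (0.861), Grn (0.860), Hist1h2bc (0.858) and Wfdc17 (0.853). For Ifitm10 they were Tonsl (0.923), Dexi (0.899), Klk8 (0.893), Thap3 (0.892) and Tmem50a (0.891), none of which is among the most like genes of the other 3 members. Neighbours of Ifitm10 moved in rank with the measure, since Tonsl was 1029th by Pearson correlation and Thap3 1st. Those of Ifitm2 moved as well, with Cd68 33rd, Fcer1g 117th, Ifitm3 24th, Tmem37 97th and Ctsb 178th by Pearson correlation. For Ifitm1, Gzma was 10th, Fxyd4 69th, Cyba 90th and Mthfsl 24th. The Ifitm3 neighbours moved less, with Plin2 2nd, Ccl6 9th, Grn 1st, Hist1h2bc 3rd and Wfdc17 7th.

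Part of the Ifitm1, Ifitm2 and Ifitm3 sequence is shared with other genes, so that short reads could be split among them. Of the stretches of 36 bases in their GENCODE transcripts, 9.16% of Ifitm1, 31.3% of Ifitm2 and 13.4% of Ifitm3 also occur in transcripts of other genes in the table, and 0.0836% of Ifitm10. No source used here says how the authors assigned such reads. The predicted genes that share most with them stayed low, at no more than 12 TPM for Gm8865, 7.07 TPM for Gm11951, 1.63 TPM for Gm2840 and 1.29 TPM for Gm7676 in any library. Ifitm2 and Ifitm3 share 34 such stretches with each other, and Ifitm1 and Ifitm3 share 29. Counted over all GENCODE genes, in the table or not, the shared part was 9.16% of Ifitm1, 53.4% of Ifitm2, 17% of Ifitm3 and 3.89% of Ifitm10.

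Of the remaining family members in the table, Ifitm5 and Ifitm7 were low, while Ifitm6 differed widely between groups. Ifitm5, a bone-specific member, reached at most 3.38 TPM, in skin replicate 1, and Ifitm7 at most 4.47 TPM, in tumor. Ifitm6, which lies beside Ifitm3 on chromosome 7, was listed at 0 in all 4 naive libraries, and stayed at or under 0.38 TPM on day 12 and 0.33 TPM in lymph node memory cells. It measured between 0.78 and 2.36 TPM in tumor, up to 20.3 TPM in skin and up to 52.3 TPM in spleen. Every lung and liver library held it, at 4.59 to 62.0 TPM and 14.8 to 83.8 TPM. Ifitm6 was called higher in spleen than in naive cells, by 2.83 ± 0.85 (limma, adjusted p = 0.0423). Liver was called higher than spleen for it, by 2.63 ± 0.85 (limma, adjusted p = 0.0389). Groups overlapped in range in both comparisons, which called 6.08% and 13.6% of all genes tested. The other comparisons did not call Ifitm6.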

How the data were processed

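Per the submitters' processing notes, the tools include Bowtie and the build mm10; no source used here gives versions, annotation, counting or normalization. The authors deposited natural log values of TPM + 1, a scale settled from the values: converted back, all cells are multiples of 0.01 TPM and libraries sum to between 999999.06 and 1000000.80. No counts can be recovered from TPM, so depth and counting error are unknown. The table has 0 columns of other samples.

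The 4 members and all lists were chosen with earlier results of these data known. Values were converted to log2(TPM + 1), which understates changes of low genes. The 19738 genes that reached 1 TPM in 4 libraries entered 1 limma 3.58.1 fit (R 4.3.3) over all 8 groups with an abundance trend and 24 residual degrees of freedom. P-values were adjusted by Benjamini-Hochberg over all genes in each of 10 comparisons and called under 0.05. The 4 members passed the filter. The pooled spread covers groups of unequal spread. The fit was tested on simulated data.

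Named genes are the members, other Ifitm genes, up to 3 called list genes per direction and comparison (some left out for length, and some not reported here), and the 5 genes most like each member by Spearman correlation, leaving out predicted genes. Alternatives were no filter, a filter of 5 TPM, another pseudocount (0.1), fits of the compared groups alone, array weights, weights per group, a replicate block, quantile normalization, fits without 6 libraries of low T cell content or with that content as a covariate, and leaving out each library; a myeloid covariate was added after the values were seen. Shared sequence was counted with GENCODE transcripts of GRCm38. Motifs and sequences come from RefSeq promoters. Replicate numbers were checked for pairing: in 0 of 10 comparisons was every pair's correlation of deviations over 0.1 (range -0.39 to 0.47). No 2 libraries were duplicates, with a highest Pearson r of 0.9896. Python 3.11.15, NumPy 2.4.6, pandas 2.3.3 and Matplotlib 3.10.9 were used.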

Additional observations from a re-analysis of the deposited data

Results flagged for a closer look

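In 3 of 32 sets of 4 libraries (4 members in 8 groups), 1 library lay far from the other 3 by Dixon's criterion on TPM. Chance alone meets it in about 1 in 20 sets of normally distributed values, a rate that skewed TPM values need not follow. All 3 flagged values were the highest of their group. Ifitm1 measured 3925 TPM in liver replicate 1, with a gap to the next library of 0.896 of the group's range. This is also the liver library with the most T cell RNA and the least myeloid RNA. Ifitm3 measured 818 TPM in skin replicate 3, with a gap of 0.969 of the range, in the skin library with the most myeloid RNA. Ifitm2 measured 199 TPM in day 12 replicate 3, with a gap of 0.853 of a narrow range, 163 to 199 TPM.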

How the results depend on the processing

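Of 440 values of the members under 11 alternatives, 380 kept direction and side of the threshold, 24 lost the call, 31 gained one and 5 changed sign. Without single libraries, 290 of 320 kept both, 22 lost the call, 2 gained one and 6 changed sign. The number of members called, 1 in lymph node memory against day 12, was 0 with no filter and with a pseudocount of 0.1, and 2 with array weights and with weights per group (0 to 1 without single libraries). For liver against spleen the 2 called became 1 with no filter, and 0 in the fit of the groups compared, with array weights, with weights per group, without the libraries of low T cell content and with the myeloid covariate (1 to 2 without single libraries). In liver against spleen a filter of 5 TPM added Ifitm2. Quantile normalization and T cell content as a covariate each gained Ifitm2 there and lost Ifitm10. For skin against lymph node memory the 2 became 0 with no filter, 1 with the pseudocount, 0 in the fit of the groups compared and 3, with Ifitm10, with array weights, with weights per group and without the libraries of low T cell content (0 to 2). For skin against spleen the 1 became 0 in the fit of the groups compared and 2 with the myeloid covariate (0 to 1). For tumor against spleen the 1 became 2 in the fit of the groups compared, with weights per group, with T cell content as a covariate and with the myeloid covariate, and 3 with array weights and without the libraries of low T cell content. For lymph node memory against spleen the 0 became 1 without those libraries (0 to 1). The 3 called in lymph node memory against naive cells became 4, with Ifitm10, under 8 of 11 alternatives, among them the replicate block (2.41, limma, adjusted p = 0.0434), which moved no other member call, and the 3 in spleen against naive cells became 4 in the fit of the groups compared, with array weights, with weights per group and without the libraries of low T cell content; both became 2 with the myeloid covariate; the shared numbers are not shown to pair libraries. Signs turned for uncalled values: Ifitm1 in lung against spleen at 0.76 with array weights (-0.92 to 0.25 without single libraries), Ifitm1 in liver against spleen at 1.27 without the libraries of low T cell content and 0.01 with T cell content as a covariate, Ifitm10 on day 12 against naive at 0.19 with T cell content and 0.10 with the myeloid covariate, and Ifitm2 against spleen in skin (-0.47 to 0.45) and lung (-0.14 to 0.62) without single libraries. The causes were not tested. TPM without counts leave the depth behind low levels, such as Ifitm1 in naive cells, unknown.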

Other observations

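Replicate 1 was the highest library for Ifitm1 in spleen (5957 TPM), lung (3989 TPM), liver (3925 TPM) and lymph node memory cells (1534 TPM), with the next library of each group at 1639, 2588, 559 and 445 TPM. The labels do not say that a number marks a shared animal or day, and in skin, tumor, day 12 and naive cells another replicate was highest.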
